A study of Mus musculus with 7 samples.

Results

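The claudin and connexin gene families were followed from the uninjured mouse digit to the blastema, the mass of cells that forms at an amputated digit tip. Members were taken by gene symbol from the array annotation, and the families were chosen with earlier results of these data known. Of the 22180 genes measured 41 belonged to the families, 25 claudins and 16 connexins. Total RNA (400 ng per sample) came from C57Bl/6 mice, whose age the labels do not give. Uninjured digits carried no injury (n = 4), and blastemas were harvested 2 weeks after amputation (n = 3). The labels call the samples of each group biological replicates and name no batch. They do not say how much of the digit around the nail, bone and pad was taken, or whether digits were pooled.

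Claudins are membrane proteins that form the strands of tight junctions, the seals that close the space between neighbouring epithelial or endothelial cells. Connexins assemble into gap junction channels, through which ions and small molecules pass directly from cell to cell. In the epidermis, tight junctions lie in the living layers beneath the cornified layer, where claudins are part of the barrier to water, and several connexins are made in overlapping layers. Other members belong to vessel walls, to the myelin of peripheral nerve, to glands or to bone cells, all of which a digit contains.

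In the blastema 4 members fell and 0 rose. All are known from stratified epithelium: Cldn4, Cldn8 and Cldn23 among the claudins and Gjb5 among the connexins. Cldn4 fell 1.82-fold, Gjb5 1.53-fold and Cldn23 1.39-fold. Cldn8 fell by a measured 2.6-fold, with a blastema signal near background. With the low blastema arrays raised to the background level defined below, the fall was 2.23-fold. Neither size allows for sampling error. The main gap junction genes of skin and bone, Gja1 and Gjb2, did not pass the test. The test was limma with Benjamini-Hochberg adjustment over all 22180 genes, and a gene was called at an adjusted p under 0.05. Of all genes 9.64% were called in either direction, with 4.66% called lower and 4.98% called higher. The 4 members called are 9.76% of 41, so the share of members called in either direction was close to that of all genes, while all 4 were on the lower side. At an unadjusted p under 0.05, 7 members were lower and 2 higher, 9 of 41, a share under the 24.9% of all genes at that threshold (12.7% lower and 12.2% higher). The median log2 change, blastema minus uninjured, was 0.01 over the 41 members and -0.01 over all genes. The groups did not overlap in 6 members, 5 of them lower in the blastema, against 21% of all genes in either direction and 10.6% on the lower side.

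**Figure D1:**
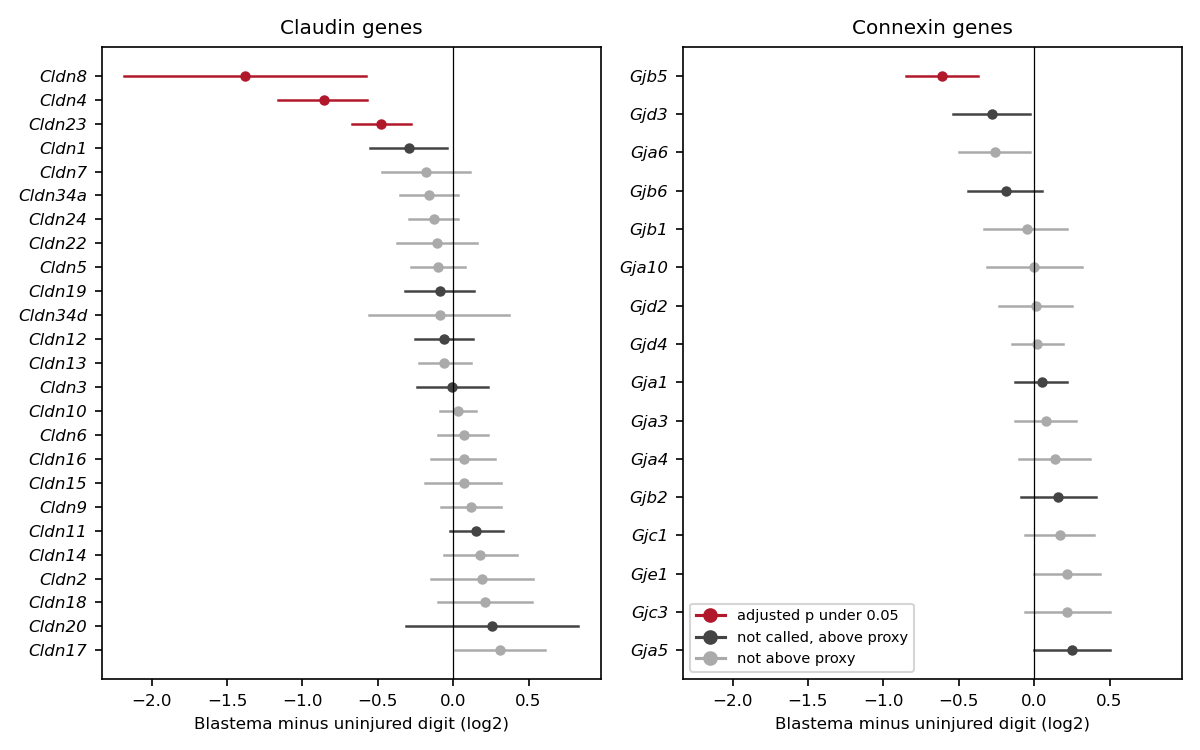
Change of each claudin (left, 25 genes) and connexin (right, 16 genes), as the blastema mean minus the uninjured mean on the log2 scale, with its 95% interval from the limma fit (4 uninjured and 3 blastema arrays). The 4 called genes, in red, lie at -1.38 (Cldn8, whose blastema mean is under the background proxy), -0.86, -0.61 and -0.48, and the other changes lie between -0.29 and 0.31.

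The table carries no detection calls, so 1105 olfactory receptor genes, little of whose RNA a digit should hold, served as a background proxy: 95% of their mean levels lay under 5.52 on the log2 scale. A group mean above this proxy was found in 15 members, 9 claudins and 6 connexins. Of these, Cldn8 lay above it only in uninjured digit, and Cldn20 and Gja5 only in blastema. All 4 called members are among these 15, and of the 13316 genes above the proxy 15.4% were called, 7.34% lower and 8.02% higher. The other 26 members had both means at or below the proxy, so for them a low signal limits what the comparison can show.

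**Figure D2:**
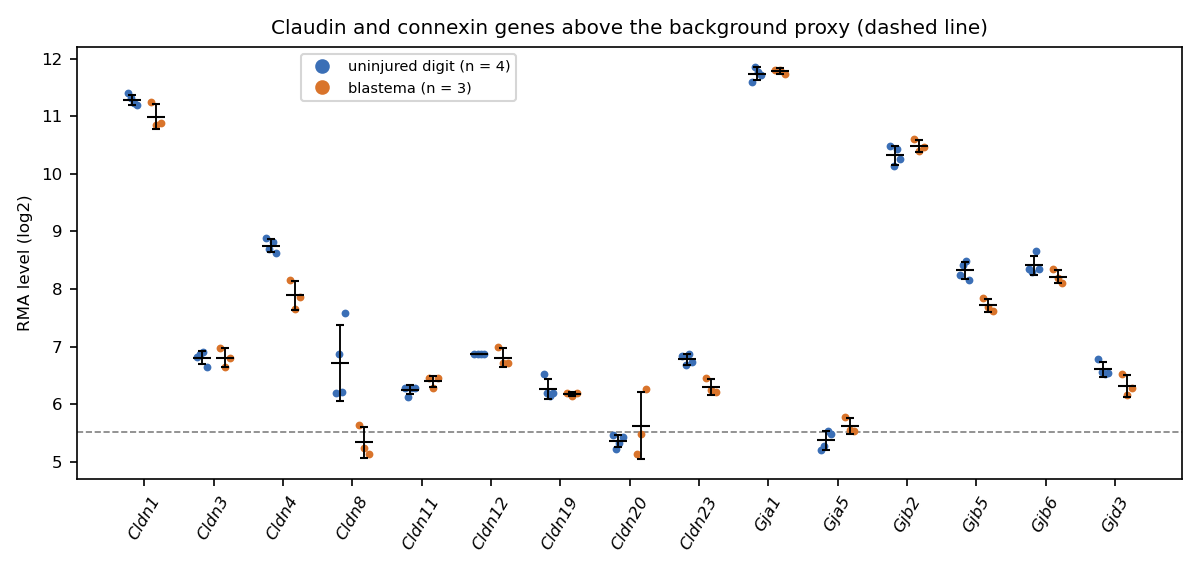
RMA level (log2) of the 15 members with a group mean above the background proxy (dashed line, 5.52), with a point for each uninjured (blue, n = 4) and blastema (orange, n = 3) array and the mean ± SD in black. The groups separate in Cldn4, Cldn8, Cldn23 and Gjb5 and overlap in the other 11; levels of different genes come from different probes and are not to be compared.

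Among the claudins of the epidermis, Cldn4 had the most stable fall. Cldn4 encodes a barrier claudin of the upper living layers of the epidermis and of many simple epithelia. Its log2 levels were 8.89, 8.70, 8.81 and 8.62 on uninjured arrays 1 to 4 and 8.15, 7.65 and 7.87 on blastema arrays 1 to 3. All blastema arrays lay below all uninjured arrays. The means were 8.76 ± 0.12 (SD, n = 4) and 7.89 ± 0.25 (SD, n = 3), with a log2 change of -0.86 ± 0.13 (SE; 95% interval -1.16 to -0.57; limma adjusted p = 0.00798). Cldn4 was called in each of the 7 omissions of an array (limma adjusted p = 0.00583 to 0.0441).

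Cldn8 fell to near background and varied widely among uninjured arrays. It encodes a claudin of the kidney tubule and of other tight epithelia, the skin among them. Its log2 levels were 6.20, 6.87, 6.22 and 7.59 on uninjured arrays 1 to 4, and 5.64, 5.24 and 5.14 on blastema arrays 1 to 3. The uninjured arrays thus differed among themselves by as much as the groups did, yet none reached down to the blastema arrays. The means were 6.72 ± 0.66 (SD, n = 4) and 5.34 ± 0.27 (SD, n = 3), and the measured log2 change was -1.38 ± 0.34 (SE; 95% interval -2.18 to -0.58; limma adjusted p = 0.0479). The blastema mean lay under the background proxy, with 1 of the 3 arrays above it, so the measured size is uncertain. With the 2 lower arrays set at the proxy the change was -1.16, or 2.23-fold lower. That value allows for background only and not for sampling error, and the 95% interval of the measured change reached -0.58. Of the 7 omissions of an array, only that of uninjured array 4 kept the call (limma adjusted p = 0.0494, with a change of -1.09). Otherwise the adjusted p was 0.0502, 0.127 and 0.0664 without uninjured arrays 1, 2 and 3, and 0.0714, 0.155 and 0.173 without blastema arrays 1, 2 and 3. It was 0.077 without both arrays numbered 1.

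Cldn23, a claudin gene expressed in differentiating epidermis, fell by a smaller amount with a narrow spread. Its log2 levels were 6.83, 6.68, 6.87 and 6.73 on uninjured arrays 1 to 4 and 6.45, 6.24 and 6.21 on blastema arrays 1 to 3. The log2 change was -0.48 ± 0.08 (SE; 95% interval -0.67 to -0.28; limma adjusted p = 0.0147). Cldn23 was not called without blastema array 2 or 3 (limma adjusted p = 0.0654 and 0.0667).

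Cldn1, the claudin that skin needs for its barrier to water, did not pass the test. Its log2 levels were 11.40, 11.31, 11.23 and 11.19 on uninjured arrays 1 to 4, and 11.24, 10.85 and 10.88 on blastema arrays 1 to 3. Blastema arrays 2 and 3 lay below every uninjured array, and blastema array 1 lay within their range. The change was -0.29 (95% interval -0.55 to -0.04; limma adjusted p = 0.15). Without blastema array 1 it was -0.42 and was called (limma adjusted p = 0.0262), and without both arrays numbered 1 it was -0.38 (limma adjusted p = 0.0292).

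Of the 6 claudins listed for epidermis, 3 fell and 0 rose, with a median change of -0.38, where 4.66% of all genes and 7.34% of those above the proxy were called lower. The list was drawn up with earlier results of these data known, so its count describes these 6 genes and is no independent evidence about epidermal claudins. The remaining members of that list were Cldn12, at -0.06 (95% interval -0.25 to 0.13), and Cldn7, at -0.18 (-0.47 to 0.11) with both means under the background proxy. On the uninjured arrays Cldn12 hardly varied, at 6.87 to 6.88, and the blastema arrays lay on both sides of it, array 1 above and arrays 2 and 3 below (6.72 and 6.71).

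Claudins of glands and simple epithelia did not pass the test. Of 9 listed, 0 were called by limma in either direction, also 0 at an unadjusted p under 0.05, and 8 of them had both means at or below the proxy. The exception was Cldn3, a barrier claudin of gut and glands, at 6.65 to 6.90 on the uninjured arrays and 6.64 to 6.98 on the blastema arrays. Its change was -0.01 (95% interval -0.24 to 0.23). Cldn10, which forms ion pores and occurs in sweat glands, differed by 0.03 (-0.09 to 0.15) at levels under the proxy.

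Claudins of vessels and nerve were likewise uncalled by limma (0 of 3, and 0 at an unadjusted p under 0.05). Cldn5, the main claudin of endothelium, had means of 5.22 and 5.12, both under the proxy, and a change of -0.10 (95% interval -0.28 to 0.08). Of 12 endothelial markers 3 were called higher and 0 lower by limma, with a median of 0.60. By comparison, 4.98% of all genes and 8.02% of those above the proxy were called higher. At an unadjusted p under 0.05, 9 of the 12 were higher and 0 lower, where 12.2% of all genes were higher. The summed endothelial level was 9.85 to 10.36 on the uninjured and 10.52 to 11.19 on the blastema arrays (log2 of the summed linear levels, as for the other marker lists below). Cldn19, a claudin of the myelin of peripheral nerve, differed by -0.09 (-0.32 to 0.14). Cldn19 is the only member with more than 1 probe set, and its other probe set gave 0.03. Cldn11, known from the myelin of the central nervous system and from the testis, lay at 6.13 to 6.29 in uninjured digit and 6.29 to 6.46 in blastema (change 0.15, 95% interval -0.02 to 0.33; limma adjusted p = 0.259).

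The remaining claudins stayed uncalled. The change was positive and at an unadjusted p under 0.05 in 1 of the 25 claudins, Cldn17 (0.31, limma adjusted p = 0.187), whose means of 4.83 and 5.14 were under the proxy. Cldn20 rested on a single high array, with 5.13, 5.48 and 6.27 on blastema arrays 1 to 3 against 5.23 to 5.46 on the uninjured arrays (0.26, 95% interval -0.31 to 0.83). Both were picked out with their values known.

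Of the 4 measured connexins listed for skin, Gjb5 fell (25%) and 0 rose, where 4.66% of all genes and 7.34% of those above the proxy were called lower. This list too was drawn up with earlier results of these data known. Gjb5 encodes a beta connexin made in keratinocytes and in the placenta. Its log2 levels were 8.24, 8.42, 8.48 and 8.16 on uninjured arrays 1 to 4, and 7.85, 7.68 and 7.62 on blastema arrays 1 to 3. The groups did not overlap. The means were 8.32 ± 0.15 (SD, n = 4) and 7.71 ± 0.12 (SD, n = 3), with a log2 change of -0.61 ± 0.10 (SE; 95% interval -0.85 to -0.37; limma adjusted p = 0.0123). Gjb5 was not called without blastema array 2 or 3 (limma adjusted p = 0.0587 and 0.0608).

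Gja1, the most widely expressed connexin and the main one of osteoblasts, fibroblasts and lower epidermis, had similar levels in both groups. They were 11.60, 11.86, 11.77 and 11.72 on uninjured arrays 1 to 4 and 11.81, 11.81 and 11.73 on blastema arrays 1 to 3. The blastema arrays lay inside the uninjured range. The change was 0.05 with a 95% interval of -0.13 to 0.22 (limma adjusted p = 0.739). On the same arrays all 8 measured osteoblast markers were called higher, with a median of 2.48 on the log2 scale. Of 11 fibroblast markers 8 were called higher, with a median of 2.08. By comparison, 4.98% of all genes and 8.02% of those above the proxy were called higher. The summed osteoblast level was 9.24 to 10.27 on uninjured and 13.32 to 13.85 on blastema arrays.

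Gjb2, a connexin of the epidermis and the inner ear that is raised in thickened epidermis, lay at 10.49, 10.13, 10.43 and 10.25 on uninjured arrays 1 to 4 and at 10.60, 10.39 and 10.47 on blastema arrays 1 to 3. The groups overlapped, and the change was 0.16 (95% interval -0.09 to 0.41; limma adjusted p = 0.398). Gjb6, which pairs with Gjb2 in the same channels, had 8.34, 8.30, 8.66 and 8.35 on uninjured arrays 1 to 4 and 8.34, 8.20 and 8.11 on blastema arrays 1 to 3. Its change was -0.19 (-0.44 to 0.05; limma adjusted p = 0.311).

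None of the 3 connexins listed for vessels was called by limma, and 0 had an unadjusted p under 0.05. Gja5, a connexin of arterial endothelium, lay at 5.20 to 5.53 on uninjured arrays and 5.53 to 5.78 on blastema arrays (change 0.25, 95% interval 0 to 0.50; limma adjusted p = 0.208). Gja4, also of endothelium, differed by 0.14 (-0.10 to 0.37) and Gjc1, of smooth muscle, by 0.17 (-0.06 to 0.40), both at levels under the proxy. All 3 changes were positive.

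The group means of the measured myelin connexins stayed under the proxy, though Gjc3 lay above it at 5.66 on blastema array 3. Gjb1, the connexin of myelinating Schwann cells, had levels of 4.95 to 5.39 in uninjured digit and 4.97 to 5.25 in blastema, and changed by -0.05 (95% interval -0.33 to 0.22). Gjc3, a glial connexin, changed by 0.22 (-0.06 to 0.50; limma adjusted p = 0.307). Of 6 measured myelin markers 0 were called by limma. At an unadjusted p under 0.05, 1 was lower and 1 higher, where 12.7% of all genes were lower and 12.2% higher.

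Of the 7 measured connexins listed for lens, retina and neurons 0 were called by limma. At an unadjusted p under 0.05, 2 were lower and 1 higher, where 12.7% of all genes were lower and 12.2% higher. Gjd3 alone of the 7 had a mean above the proxy, at 6.79, 6.56, 6.53 and 6.54 on uninjured arrays 1 to 4 and 6.53, 6.16 and 6.28 on blastema arrays 1 to 3. Its change was -0.28 (95% interval -0.54 to -0.03; limma adjusted p = 0.159), and it is named after its values were seen.

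Several claudin and connexin genes sit beside each other in the genome, and 3 of the 4 genes that fell lie next to or near a member that was not called. In the RefSeq table Cldn4 and Cldn3 are adjacent protein-coding genes on chromosome 5, Cldn8 and Cldn17 on chromosome 16, and Gjb5 and Gja4 lie near each other on chromosome 4. Because the Cldn4, Cldn3 and Gjb5 promoters are those of a claudin that fell, of its neighbour that was not called and of the connexin that fell, the 250 bases before each RefSeq start site (GRCm38.p6) are shown, 5′ to 3′ on the strand of the gene. Capitals mark matches, on either strand, to the motifs searched.
Cldn4 (chr5:134946935-134947184, minus strand): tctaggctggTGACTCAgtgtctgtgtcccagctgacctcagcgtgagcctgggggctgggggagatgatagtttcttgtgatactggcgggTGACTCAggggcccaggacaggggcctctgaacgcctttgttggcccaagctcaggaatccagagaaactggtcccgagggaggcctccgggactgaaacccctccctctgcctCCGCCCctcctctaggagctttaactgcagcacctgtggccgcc
Cldn3 (chr5:134985964-134986213, plus strand): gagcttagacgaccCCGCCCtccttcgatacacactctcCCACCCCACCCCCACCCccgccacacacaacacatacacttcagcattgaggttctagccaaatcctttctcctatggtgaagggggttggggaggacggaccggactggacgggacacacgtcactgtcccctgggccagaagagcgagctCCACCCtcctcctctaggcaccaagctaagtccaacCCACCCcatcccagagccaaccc
Gjb5 (chr4:127358165-127358414, minus strand): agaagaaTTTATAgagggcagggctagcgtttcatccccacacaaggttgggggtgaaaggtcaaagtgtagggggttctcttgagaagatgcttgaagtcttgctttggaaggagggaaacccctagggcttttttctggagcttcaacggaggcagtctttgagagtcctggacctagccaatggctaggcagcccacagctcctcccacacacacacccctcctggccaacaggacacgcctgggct

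Motifs were searched on both strands of the 250 bases, in these genes and in all 32851 promoters of the table. No promoter of Cldn8 or Cldn23 is in that table, so these called genes were not searched. The TATA box, spelled TATAAA, was found in 12.4% of all promoters. The site bound by AP-1 factors, TGANTCA, was found in 6.75%. The GC box, spelled GGGCGG, was found in 32.7%, and the motif CCACCC, bound by Krüppel-like factors, in 28.1%. The core of sites bound by Grainyhead-like factors, ACCGGT, was found in 1.86%. The Cldn4 promoter held 2 AP-1 matches, 240 and 158 bases before the start, and 1 GC box. AP-1 matches occurred in 4 of the 33 members with a promoter in the table, Cldn4 and the uncalled Cldn15, Gja1 and Cldn34d. Those 33 genes have 45 promoters, so a count by gene is not directly comparable with the 6.75% of promoters. The Cldn3 promoter held 1 GC box and 5 matches to the Krüppel-like motif, some of which overlap by a base, and no AP-1 match. The Gjb5 promoter held 1 TATA box match, on the opposite strand 243 bases before the start. The Grainyhead-like core was in none of these windows. GC content was 62.0% for Cldn4, 60.8% for Cldn3 and 54.4% for Gjb5, against a median of 52.4% over all promoters. These matches are letters in a window, and whether a factor binds there was not measured.

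The difference between the genes of a pair was then taken within each array and compared between groups by an exact two-sided permutation test over the 35 ways of choosing 3 arrays of 7. The pairs were the 8 of neighbouring members, chosen by position alone, and p-values were adjusted over the 8. The smallest p this design allows is 0.0286. In 3 of the 8 pairs 1 gene had been called and the other had not, so a difference in those pairs largely restates the call.

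Cldn4 minus Cldn3 was 2.07, 1.83, 1.91 and 1.97 on uninjured arrays 1 to 4 and 1.17, 1.01 and 1.07 on blastema arrays 1 to 3. The difference thus shrank by 0.86 with no overlap (exact permutation p = 0.0286), and did not pass after adjustment (adjusted p = 0.0762). Gjb5 minus Gja4 fell by 0.75 and Cldn8 minus Cldn17 by 1.69, with the same exact p-values. The size of both rests on levels under the background proxy, those of Gja4, of Cldn17 and of Cldn8 in the blastema. Gjb2 minus Gjb6, a pair with no called gene, averaged 1.92 on the uninjured and 2.27 on the blastema arrays, with no overlap (exact permutation p = 0.0571, adjusted p = 0.114). The other 4 neighbour pairs overlapped, and their exact adjusted p was 0.137 or more.

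**Figure D3:**
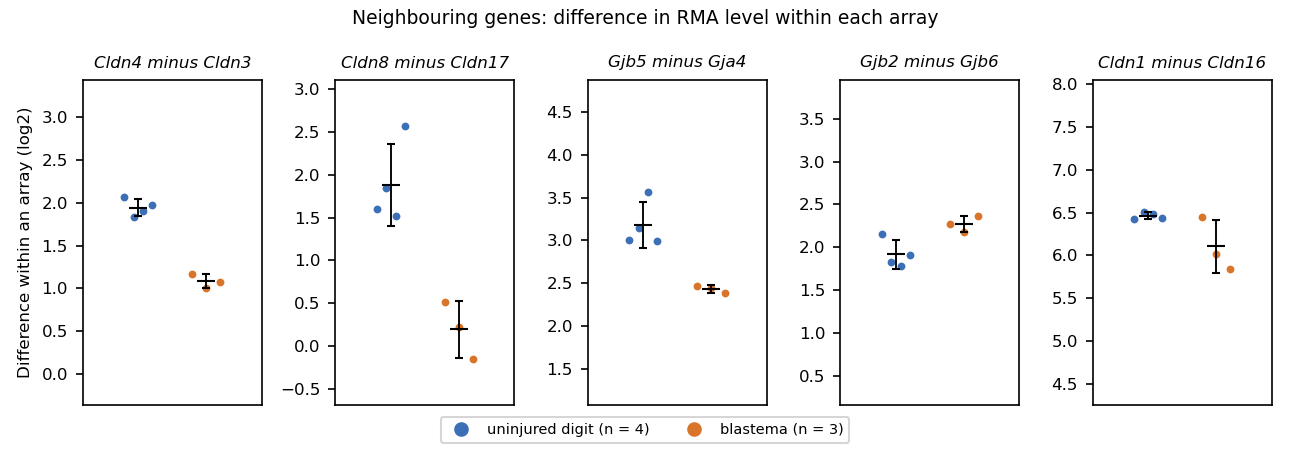
Difference in RMA level (log2) between neighbouring members within each array, for uninjured (blue, n = 4) and blastema (orange, n = 3) arrays, with the mean ± SD in black and axes of equal span. Uninjured and blastema arrays separate for Cldn4 minus Cldn3, Cldn8 minus Cldn17, Gjb5 minus Gja4 and Gjb2 minus Gjb6, and overlap for Cldn1 minus Cldn16; the height of a panel depends on the probes and carries no meaning.

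Other proteins of the tight junction were called at about the either-direction share of all genes, and every call was lower. The background is the 9.64% of all genes called in either direction (15.4% of those above the proxy). Of all genes 4.66% were called lower, and 7.34% of those above the proxy. Of 20 measured scaffold and polarity genes 3 were called lower (15.0%) and 0 higher by limma, with a median change of -0.16. At an unadjusted p under 0.05, 4 were lower and 2 higher, where 12.7% of all genes were lower and 12.2% higher. Cgn, which encodes the cytoplasmic plaque protein cingulin, lay at 8.22, 7.93, 8.17 and 7.98 on uninjured arrays 1 to 4 and at 7.51, 7.19 and 7.09 on blastema arrays 1 to 3, below all of them. Its change was -0.81 ± 0.12 (SE; limma adjusted p = 0.00868), and it was called in all 7 omissions of an array. Magi3, a scaffold gene, fell by 0.54 (limma adjusted p = 0.0335) and Tjp3, which encodes a zonula occludens protein, by 0.44 (limma adjusted p = 0.0436). Tjp1, the best known gene of that family, differed by 0.16 (95% interval -0.02 to 0.34; limma adjusted p = 0.261) and is named after its value was seen.

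Of the 12 other membrane proteins of tight junctions 1 fell (8.33%) and 0 rose by limma. At an unadjusted p under 0.05, 3 were lower and 1 higher, where 12.7% of all genes were lower and 12.2% higher. The gene called was Marveld2, which encodes tricellulin, the protein of corners where cells meet (-0.50, limma adjusted p = 0.0425). Ocln, the gene of occludin, differed by -0.37 (limma adjusted p = 0.0653) and F11r, of a junctional adhesion molecule, by -0.48 (limma adjusted p = 0.0694). In both the groups did not overlap, and both were picked out with their values known. Magi3 was called without uninjured array 1 or 3 and lost its call in the other omissions (limma adjusted p = 0.0639 to 0.129). Tjp3 was called only without blastema array 1, and Marveld2 only without uninjured array 1 (limma adjusted p otherwise 0.0544 to 0.153 and 0.0637 to 0.156).

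Among 13 measured regulators of epithelial barriers 4 fell (30.8%) and 0 rose by limma, where 4.66% of all genes and 7.34% of those above the proxy were called lower. At an unadjusted p under 0.05, 6 were lower and 0 higher, where 12.7% of all genes were lower, and the median was -0.18. Prss8, which encodes the membrane-bound protease prostasin, needed for a working epidermal barrier, fell by 0.76 (SE 0.11, limma adjusted p = 0.00832) and was called in all 7 omissions. Grhl1 and Grhl2, transcription factor genes of epithelial junctions, fell by 0.52 and 0.49 (limma adjusted p = 0.0291 and 0.0379), and the kinase gene Ripk4 fell by 0.36 (limma adjusted p = 0.0408). Grhl3 differed by -0.18 (limma adjusted p = 0.501) and is named after its value was seen. Grhl1 and Ripk4 were called only without blastema array 1 and Grhl2 only without blastema array 2 (limma adjusted p otherwise 0.0501 to 0.142). Under reference gene scaling Grhl1 and Ripk4 were not called (limma adjusted p = 0.0557 and 0.114).

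Pannexins, which form membrane channels related in shape to those of connexins, and proteins that bind or modify connexins went both ways: of 8 measured, 3 rose and 1 fell, where 4.98% of all genes were called higher and 4.66% lower. Panx3, a pannexin of osteoblasts and hypertrophic cartilage, lay at 4.89, 5.59, 4.78 and 5.01 on uninjured arrays 1 to 4 and at 7.70, 8.67 and 8.31 on blastema arrays 1 to 3. Uninjured levels were near or under the background proxy, and all blastema arrays were far above them. The measured change was 3.16 ± 0.27 (SE; limma adjusted p = 0.00181). With the 3 uninjured arrays under the proxy set at it, the change was 2.69, or 6.46-fold. That value allows for background only and not for sampling error. Dbn1, of the actin-binding protein drebrin, rose by 0.67 (limma adjusted p = 0.00655), and the ubiquitin ligase gene Nedd4 rose by 0.60 (limma adjusted p = 0.0237). Cnst, which encodes consortin, a receptor that sorts connexins to the cell surface, fell by 0.77 (limma adjusted p = 0.0124). Panx1 and Panx2 differed by -0.22 and 0.17 (limma adjusted p = 0.208 and 0.594) and were picked out with their values known. Cnst was not called without blastema array 2 or 3 (limma adjusted p = 0.0608 and 0.0569), and Nedd4 lost its call in 4 omissions, those of uninjured arrays 2 and 3 and of blastema arrays 2 and 3 (limma adjusted p = 0.0557, 0.0732, 0.0903 and 0.0992).

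**Figure D4:**
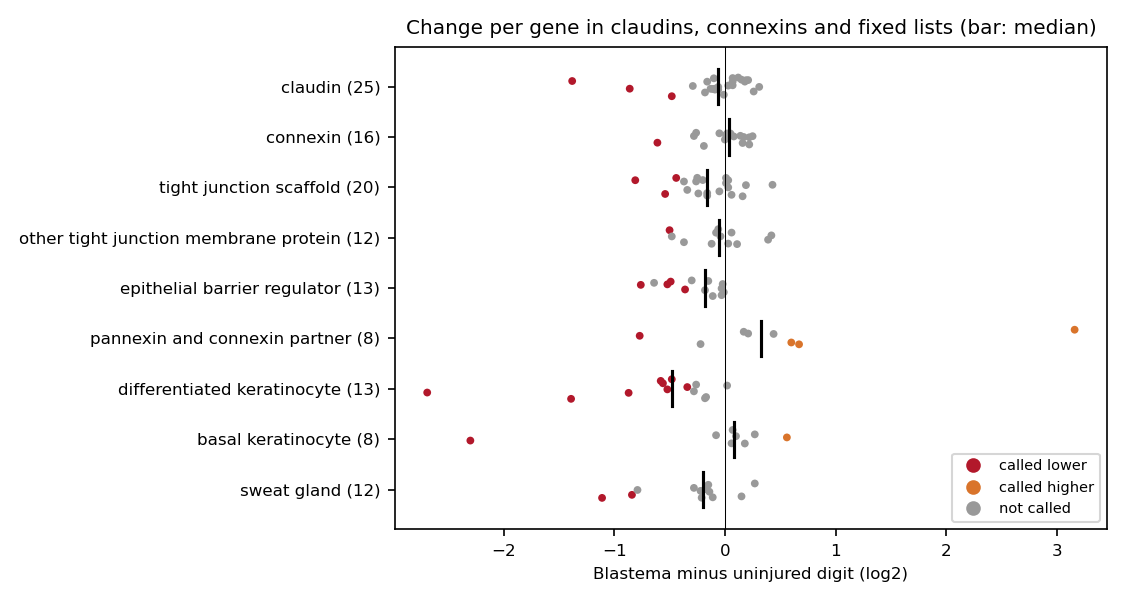
Change of each gene (blastema minus uninjured mean, log2; 4 uninjured and 3 blastema arrays) in the claudins, the connexins and 7 gene lists, with the number of genes measured in brackets, the median as a black bar, genes called lower in red and genes called higher in orange. The medians lie between -0.48 (differentiated keratinocyte) and 0.33 (pannexin and connexin partner), and Panx3 stands apart at a measured 3.16.

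Among the markers of epithelial cell types, most of those of differentiated keratinocytes fell. The tissue is a mixture, so fewer cells of a type and less RNA per cell cannot be told apart. Of 13 markers of differentiated keratinocytes, all above the proxy, 8 were called lower and 0 higher by limma, with a median of -0.48. Krt1 and Krt10 were among the 5 not called (-0.17 and -0.18). Of all genes 4.66% were called lower and 4.98% higher, and of those above the proxy 7.34% and 8.02%. At an unadjusted p under 0.05, 10 of the 13 were lower and 0 higher, where 12.7% of all genes were lower and 12.2% higher. The summed log2 level of the 13 markers was 15.54 to 15.81 on uninjured and 15.14 to 15.30 on blastema arrays, a mean difference of -0.46. Of 8 basal keratinocyte markers 1 was called higher (Bnc1, 0.56) and 1 lower (Krt15, -2.3), with a median of 0.09. Their summed level was 13.06 to 13.14 on uninjured and 13.09 to 13.21 on blastema arrays, a mean difference of 0.02. The brightest genes weigh most in such a sum, so it hardly reflects the fall of Krt15. Of 12 sweat gland markers 2 were called lower and 0 higher (3 lower and 1 higher at an unadjusted p under 0.05), with a median of -0.20 and 2 markers under the proxy. The summed sweat gland level was 10.23, 10.47, 10.41 and 10.95 on uninjured arrays 1 to 4 and 10.16 to 10.23 on the blastema arrays. Among uninjured arrays, Cldn8 too was highest on array 4. The same array was highest for smooth muscle and pericyte, chondrocyte, osteoclast and adipocyte markers, and not for the other marker lists. The part of these shifts in the falls of Cldn4, Cldn8, Cldn23 and Gjb5 was not tested.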

How the data were processed

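The deposited values are log2 levels that the authors made with RMA in the R package oligo, per the submitters' processing notes. The method evens out the distributions of the arrays, so a global difference in RNA content would not show. The tool's version and the array build: not given in the sources used here. Values for 41345 probe sets on 7 arrays were used (values 0.66 to 13.70, array medians 5.53 to 5.58). Arrays have no read depth, and their number limits the precision.

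Genes came from the 23521 probe sets with 1 symbol (1814 had several and 16010 none), with the brightest probe set over the 7 arrays for the 1082 genes with several. All 41 members had a RefSeq entry with the same symbol. limma 3.58.1 in R 4.3.3 compared blastema with uninjured digit with no covariate, Benjamini-Hochberg adjusted over 22180 genes. The series' design text calls the samples independent biological replicates without naming animals, so p-values measure the spread between these samples.

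The text names every called member, members fixed by name (skin, vessel, gland and nerve members) and at most 4 called genes of each partner list. Members and lists were chosen with earlier results of these data known, and the background proxy too. Alternatives were array median and reference gene scaling (8 of 10 genes measured, among which Rplp0 fell by 0.82 and Gapdh rose by 0.31), 2 level filters, other probe set rules, variance models, array weights, a replicate block and omitted arrays. On simulated data over the same 22180 genes, 200 of them changed, limma recovered 42% of genes changed by 0.5 (log2), 84% at 1, 98% at 2 and 100% at 3. Of its 174 calls 12 were false. In the real data 2139 genes were called, so these rates are not the power of that comparison. Figures used Python 3.11.15 and matplotlib 3.10.9.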

Additional observations from a re-analysis of the deposited data

Results flagged for a closer look

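On the uninjured arrays, a group of 4, 8 of the 41 members had 1 array whose gap to the nearest other, as a share of the group's range, passed Dixon's 95% critical value. Chance alone gives about 1 in 20 for values with a normal spread, but 17.5% of all 22180 genes passed it too, against 19.5% of the members. In 4 of the 8, Cldn11, Cldn12, Cldn18 and Gjc1, the other 3 arrays shared a tied value, for which the nominal rate does not hold. Among genes without such a tie 11.6% of all genes and 4 of 37 members passed. Cldn19 was highest on array 1 (6.52, the others 6.14 to 6.20), as was Gjd3 (6.79, the others 6.53 to 6.56). Cldn11 was lowest on array 2 (6.13), with the same level of 6.29 on each of the other arrays, and Cldn12 was highest there (6.88), with 6.87 on the others. Gjb6 was highest on array 3 (8.66, the others 8.30 to 8.35), and Gjc1 was lowest there (4.87), with 4.90 on the others. Cldn2 and Cldn18 were lowest on array 4 (3.79 and 4.57), with 4.08 to 4.12 and 4.95 on the others. None of these is a called gene. A value shared to 4 decimals by at least 3 of the 7 arrays occurred in 17 of 41 members (41.5%) and in 6548 of 22180 genes (29.5%), and in such genes the range of a group can be very small.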

How the results depend on the processing

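The 4 called members were the same genes, all lower, under both scalings, both level filters, both other probe set rules, the trend with robust variances and array weights. Omitting 1 array gave 1 to 4 called members and 845 to 2295 called genes. The low counts came without blastema array 2 (886 genes) or 3 (845 genes), when Cldn4 was the member called; without uninjured array 2, 3 or 4 there were 1187, 1145 and 1244 genes, and fewer samples were then fitted. Omitting both arrays numbered 1 called Cldn1 and Gjd3 and lost Cldn8. With the replicate block, 599 genes and 1 member, Cldn4, were called. No blastema array is numbered 4, and the changes were those found without uninjured array 4 (Cldn8 -1.09 and Cldn4 -0.91 in both fits). The cause of the lower count was not tested. The replicate number is not known to pair samples: deviations of same-numbered arrays correlated at 0.29, 0.15 and -0.07 for numbers 1 to 3. Changes near 0 turned sign: Cldn10 to -0.01 under median scaling, Gja1 to -0.01 without both arrays numbered 1, and, over omissions of 1 array, Cldn3 (-0.09 to 0.08) and Gjb1 (-0.13 to 0.02); the cause was not tested. Signal at or below the proxy limits 26 members.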
